A study of Rattus norvegicus with 12 samples.

Results

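Zfat encodes a nuclear protein with C2H2 zinc fingers and an AT-hook, known as a transcriptional regulator needed for the development and survival of lymphocytes and other blood cells. ATAC-seq finds exposed DNA, because a transposase inserts sequencing adapters there, and open sites commonly mark promoters and distal regulatory elements, which often lie inside the introns of long genes. The window described here is the stretch of chromosome 7 from 109000000 to 109400000 that holds the Zfat promoter and the part of the gene body next to it. Its members are all listed peaks that start in this stretch. Of 730912 peaks in all lists, 185 did, and merging those that overlapped by at least 1 bp gave 40 of the 118874 merged regions of the genome. The window was chosen because Ethanol and Control libraries differed in it, so the differences between the groups inside it are given as a description without a test.

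The libraries came from the amygdala (central, medial and basolateral nuclei) of adult male Sprague Dawley rats. Control rats received saline and Ethanol rats received ethanol at 1 g/kg, both into the peritoneal cavity, and tissue was taken 1 h later. There were 6 libraries per group, each described by the study as an individual animal, and all animals were labelled WT. The tissue was a mixture of cell types, so a change in the share of a cell type and a change in accessibility within cells cannot be told apart. The tissue label was not checked against marker genes, because marker genes could not be placed on the build the peaks use.

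The lists gave peak positions and a score per peak without read counts, so depth is unknown. They held 50370 (Ethanol 5) to 75847 (Ethanol 6) peaks covering 75.6 to 135 Mb, the longest total being that of Ethanol 6. Covered length was therefore also divided by the library's total covered length (bp per Mb of peaks). No pair of libraries shared more than 0.0159% of its peaks with identical bounds.

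Positions are those of the deposited lists, in the build Rnor_6.0 named by the submitters' processing notes, and distances count from the centre of the promoter region, negative toward lower coordinates. The study's annotation, which was read only in part, placed the regions next to the promoter at negative distances in the body of Zfat (gene ID 362925) and those just above it upstream of the start site, so the gene reads toward lower coordinates. Whether a region lies in an exon or an intron, and whether the lowest regions of the window still lie in the gene, was not analysed here. In the gene order of another build (GRCr8), Zfat is followed at higher coordinates by the lncRNA genes LOC120093680 and LOC102551574 and the microRNA genes Mir30b and Mir30d, and preceded by the pseudogenes Nop2-ps3 and Hypk-ps1.

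**Figure D1:**
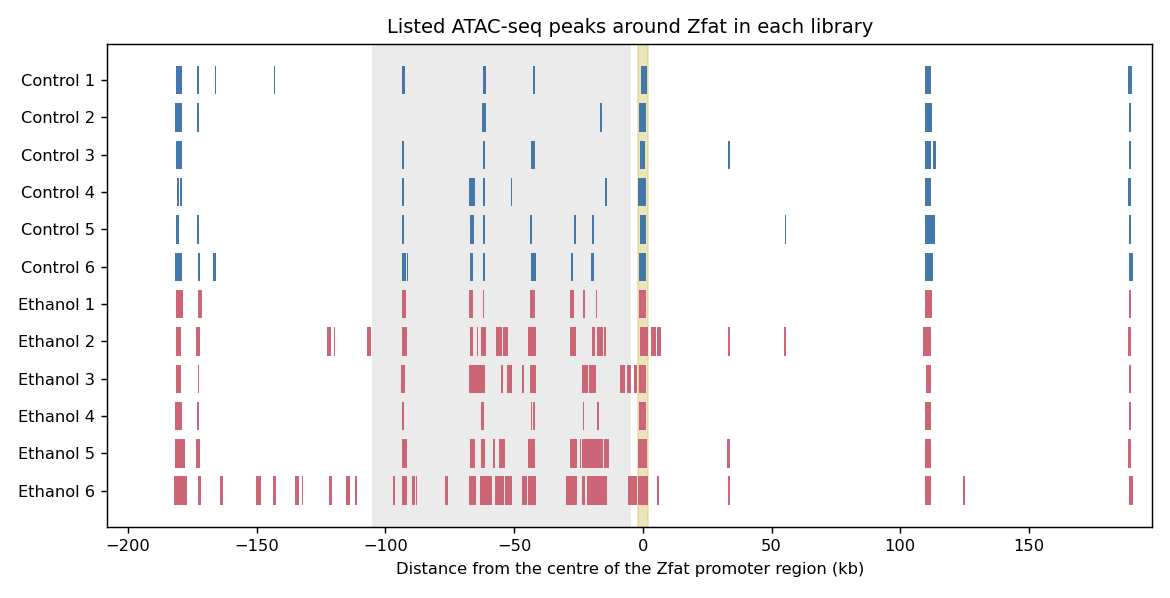
Each bar is a listed peak, drawn to scale against its distance in kb from the centre of the Zfat promoter region, with 1 row per library (blue Control, red Ethanol). The yellow band is the promoter region and the grey band the 100 kb below 109200000, where Ethanol 2, 3, 5 and 6 have 11 to 17 peaks and the Control libraries 2 to 7.

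Over the whole window, the Control libraries were close to each other and the Ethanol libraries were not. Control 1 to 6 had 170, 146, 164, 162, 162 and 173 bp per Mb in peaks, and Ethanol 1 to 6 had 181, 439, 401, 153.9, 444 and 497. Ethanol 2, 3, 5 and 6 thus lay far above every Control library, Ethanol 1 lay just above them, and Ethanol 4 lay inside their range. Control averaged 163 ± 9.64 and Ethanol 353 ± 147 bp per Mb (SD, n = 6 in each group), a ratio of 2.16. Among 2824 windows of 400 kb with enough peaks, the Ethanol mean was at least 2-fold the Control mean in 10 (0.354%), this window included, and the Control mean at least 2-fold the Ethanol mean in 0 (0%). All 6 Ethanol libraries exceeded all 6 Control libraries in 0.106% of the windows, and the reverse held in 0.177%. The Zfat window was in neither class.

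Before division, peaks covered 12859, 11552, 12446, 13119, 15885 and 20375 bp of the window in Control 1 to 6. They covered 19323, 39234, 31050, 14139, 36975 and 66910 bp in Ethanol 1 to 6. The totals of the libraries were 77.5 Mb in Ethanol 3 and 83.3 Mb in Ethanol 5, below the Control mean of 87.8 Mb. Control 6 had 117 Mb, and Ethanol 6, the highest in the window, had the longest total, 135 Mb. Whether depth shaped the values in the window was not tested. The number of peaks was 8 to 13 per Control library and 11 to 34 per Ethanol library, and 4 of 6 Ethanol libraries had more than every Control library. Control peaks in the window were on average 1327 ± 156.6 bp wide and Ethanol peaks 1655 ± 246 bp (SD over 6 libraries). Libraries also differed in the median width of all their peaks, which ran from 1087 to 1180 bp among the Control lists. Ethanol 5 (1275 bp) and Ethanol 6 (1301 bp) lay above that range, and Ethanol 1 (1182 bp) just above it. Ethanol 2 (1159 bp) and Ethanol 3 (1124 bp) lay inside it, and Ethanol 4 was the lowest of all (1006 bp). Whether widths in the window follow those of the whole list was not tested.

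Ethanol 6 had both the longest list and the highest value in the window. Without it the Ethanol mean was 324 ± 144 bp per Mb (SD, n = 5) and the difference from Control fell from 190 to 160.8 bp per Mb. With each list cut to its 50370 highest scoring peaks, the log2 ratio of the group means was 1.05 over the window in place of 1.11. It was 2.09 both before and after the cut in the 100 kb below 109200000. With lists of equal length, 4 of 6 Ethanol libraries in place of 5 lay above all Control libraries in both places.

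**Figure D2:**
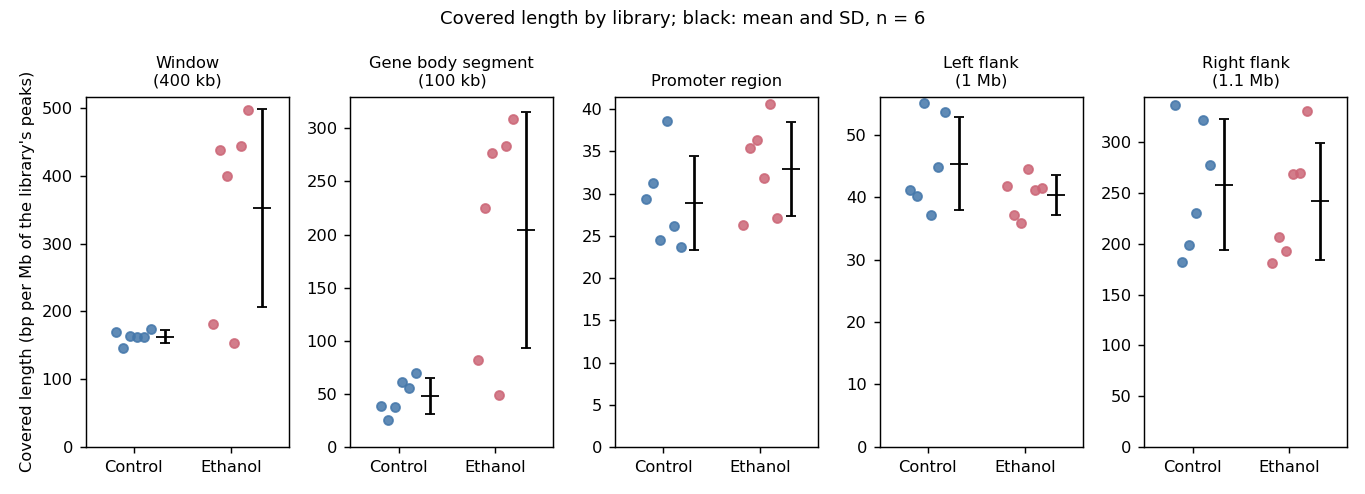
Points are the 6 libraries of each group, in bp of peaks per Mb of all peaks of the library, for the window, the 100 kb below 109200000, the promoter region and both flanks. The black marks are the mean and SD. In the first 2 panels 4 Ethanol points lie far above the Control points, and Ethanol 4 lies inside the Control range. In the other panels the groups overlap as well.

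The flanks lay outside the window and could be tested, by an exact two-sided permutation test on the difference of the group means. In the left flank, from 108000000 to 109000000, Control had 45.3 ± 7.43 and Ethanol 40.3 ± 3.23 bp per Mb (SD over 6 libraries; exact permutation p = 0.197, or 0.394 adjusted over both flanks). In the right flank, from 109400000 to 110500000, Control had 258 ± 64.5 and Ethanol 242 ± 57.8 bp per Mb (SD, n = 6 each; exact permutation p = 0.641, also 0.641 adjusted). Neither permutation test gave a p below 0.05. Ethanol 2, 3, 5 and 6, which stood high in the window, had 37.2, 35.8, 41.1 and 41.5 bp per Mb in the left flank, where Control ran from 37.1 to 55.1.

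The window was more densely covered than its flanks in each library, whatever its treatment. Peaks covered 6.12% ± 4.14 of the window and 1.31% ± 0.467 of the flanks (SD, n = 12). The window was higher in 12 of 12 libraries, by 1.85 to 14.3 percentage points. No p is given over all 12, because the high Ethanol values were among those that chose the window. Within Control alone the shares were 3.59% ± 0.820 and 1.29% ± 0.426 (SD, n = 6). The mean excess was 2.31 percentage points, seen in 6 of 6 libraries (two-sided exact sign-flip test, p = 0.0312, the smallest that 6 libraries allow). Control values also took part in the choice of the window, which holds a promoter listed in all 12 libraries. No conclusion is drawn from this p. The right flank held most of the covered length outside the window, 2.14% ± 0.817 of its length against 0.398% ± 0.108 in the left flank (SD, n = 12).

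**Figure D3:**
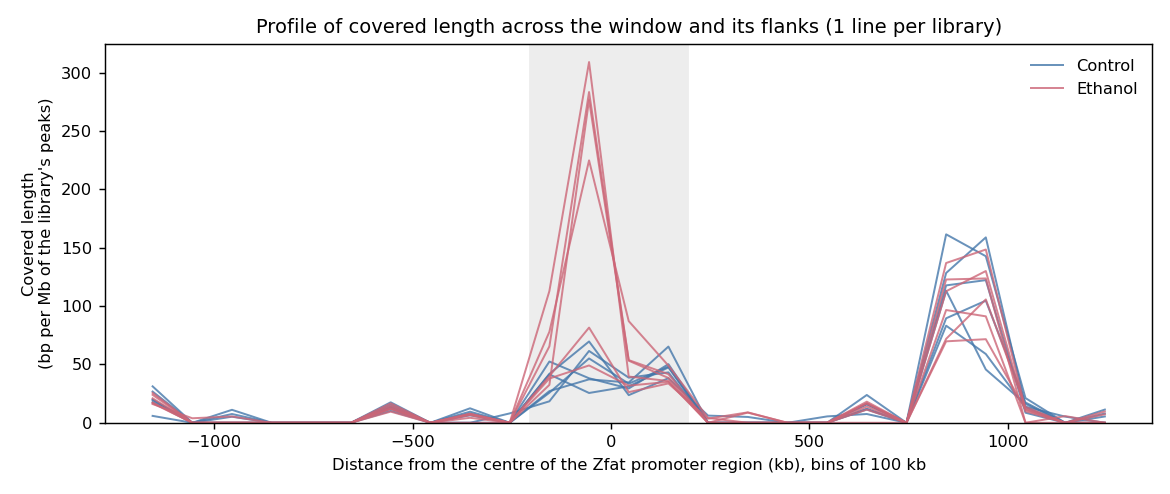
Covered length in bins of 100 kb, in bp per Mb of the library's peaks, against distance in kb from the promoter region, with 1 line per library and the window shaded. The red lines of Ethanol 2, 3, 5 and 6 rise to between 225 and 309 bp per Mb in the bin just below the promoter. In the window bins on its lower and upper side, 3 and 4 Ethanol libraries exceed every Control library. In the flank bins the lines of both groups overlap, with a wide spread between libraries in the fullest bins of the right flank.

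The excess of the Ethanol libraries was not spread evenly over the window. Of the mean difference of 190 bp per Mb, 82.3% fell in the 100 kb from 109100000 to 109200000, which lie on the gene body side of the promoter and are called the proximal stretch here. The 100 kb below held 14.0% and the 100 kb with the promoter 8.84%, whereas the last 100 kb, from 109300000 on, went the other way, with 38.9 ± 5.68 bp per Mb in Ethanol and 48.7 ± 9.17 in Control (SD, n = 6 each). Without Ethanol 6 the difference in the proximal stretch was 135 bp per Mb in place of 156.2.

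The promoter region itself, on chromosome 7 from 109203061 to 109206986, was listed in each of the 12 libraries. Peaks covered 2220, 2476, 1861, 3136, 2557 and 2784 bp of it in Control 1 to 6 and 2795, 3166, 2822, 2923, 3383 and 3649 bp in Ethanol 1 to 6. The groups overlapped, with Control 4 above 3 of the Ethanol libraries. The means were 2506 ± 442 and 3123 ± 342 bp (SD, n = 6 each), or 28.9 ± 5.56 and 32.9 ± 5.61 bp per Mb. After division only Ethanol 5, at 40.6 bp per Mb, exceeded every Control library. This position accounted for 2.11% of the difference over the window. The study printed this position from the same animals, so its values here are no independent evidence of a direction.

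The promoter region also differed from the rest of the window in rank. The score percentile, the rank of a peak's score among all peaks of its library, was 94.2 to 98.6 for the best peak of the promoter region. In the proximal stretch the best peak reached only 51.6 to 78.9. The promoter was higher in 12 of 12 libraries, by 18.7 to 42.9 percentile points, and took the second place among the regions of the window in each.

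The first place belonged in each library to a region at 111.4 kb, on chromosome 7 from 109313812 to 109319021, with a score percentile of 99.0 to 99.7 in Control and 98.9 to 99.6 in Ethanol. It was one of the 3 regions with the lowest ratio of Ethanol to Control among those listed in at least 6 libraries. Peaks covered 2513, 2951, 3841, 2532, 3804 and 2959 bp of it in Control 1 to 6. They covered 2608, 3226, 2053, 2312, 2492 and 2466 bp in Ethanol 1 to 6. The groups overlapped, and the log2 ratio of the group means per Mb was -0.43. The other 2 with low ratios were the region at 190 kb (log2 ratio -0.14), listed in all 12 libraries, and the promoter region (0.19), whose ratio was above 1.

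**Figure D4:**
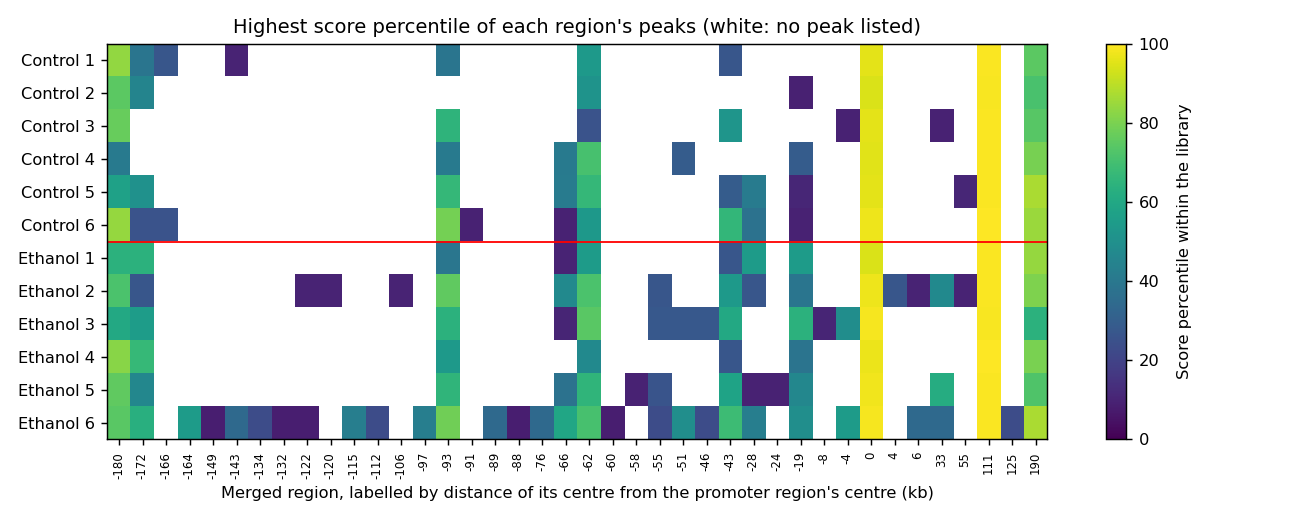
Colour gives the highest score percentile among the peaks of each of the 40 merged regions (columns, labelled by distance in kb from the promoter centre) in each library (rows, Control above the red line), and white means no listed peak. The promoter region and the region at 111.4 kb are bright in every library, whereas most columns between -164 and -4.27 kb are filled in at most 4 libraries.

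The proximal stretch held 19 regions, 10 of them without a peak in any Control library, against 23.8% of all merged regions of the genome. Most of these 10 were listed in 1 library only, mainly Ethanol 6 and otherwise Ethanol 3 or Ethanol 5. Nothing is read from this count, because the window was chosen on the same contrast. Control 1 to 6 had 38.1, 25.5, 37.2, 61.5, 55.1 and 69.6 bp per Mb in this stretch. Ethanol 1 to 6 had 81.5, 225, 277, 49.1, 283 and 309. Ethanol 4 again lay within the Control range, and the other 5 lay above it. In length, peaks covered 4.38% ± 2.28 of these 100 kb in Control and 19.98% ± 13.0 in Ethanol (SD, n = 6 each), up to 41.6% in Ethanol 6.

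The longest region of the window lay in this stretch, at -18.5 kb, on chromosome 7 from 109181200 to 109191753. It had the largest ratio of Ethanol to Control among regions listed in at least 6 libraries (log2 ratio 3.25). Control 1 and 3 had no peak there, and Control 2, 4, 5 and 6 had 576, 774, 945 and 857 bp, each in a single peak. Ethanol 1 to 6 had 1120, 4488, 4956, 1246, 9749 and 8920 bp, in 2 to 5 peaks per library. All 6 Ethanol libraries exceeded all 6 Control libraries, before and after division, by a small margin for Ethanol 1 and Ethanol 4. It was the only one of the 21 window regions shared by 2 or more libraries that had this order, which 0.0635% of such regions of the genome had. None had the reverse order, found in 0.0842%. The peaks here were not of high rank: the best score percentile was 9.25 to 28.9 in Control libraries with a peak and 38.6 to 64.4 in Ethanol libraries.

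The next regions by ratio lay at -27.7 kb and -43.1 kb. At -27.7 kb, from 109175213 to 109179482, peaks covered 819 bp in Control 5 and 1126 bp in Control 6, and 1687, 2444, 2706 and 4270 bp in Ethanol 1, 2, 5 and 6, with no peak in the other 6 libraries (log2 ratio 2.58). The absence of a peak in Ethanol 3 and Ethanol 4 made the groups overlap. At -43.1 kb, from 109160231 to 109163657, Control 1, 3, 5 and 6 had 618, 1551, 800 and 2175 bp, and Ethanol 1 to 6 had 2019, 3378, 2334, 1404, 2730 and 3256 bp (log2 ratio 1.52). Here each Ethanol library had a peak, but Control 6 exceeded Ethanol 1 and Ethanol 4 in length.

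One region of the stretch was listed in all 12 libraries, at -62.1 kb from 109141498 to 109144400. Peaks covered 1119, 1449, 707, 617, 845 and 721 bp in Control 1 to 6 and 466, 1683, 2292, 1072, 1532 and 2656 bp in Ethanol 1 to 6. Ethanol 1 was the lowest of all 12 libraries and Ethanol 6 the highest, so the groups overlapped. In contrast to the promoter its score percentile was middling, 25.6 to 70.9 in Control and 47.4 to 74.6 in Ethanol.

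Other regions of the stretch were listed less completely. The region at -92.7 kb had a peak in 5 Control and 6 Ethanol libraries (log2 ratio 0.94) and the region at -65.7 kb in 3 and 5 (1.24). Next to the promoter, at -4.27 kb, Control 3, Ethanol 3 and Ethanol 6 alone had peaks. On the upstream side the window was sparse, and 4 of its 7 regions there had a peak in at most 2 libraries.

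Counted over the window, 5 of the 40 regions had a peak in all 12 libraries, 6 in 6 to 11 libraries, 10 in 2 to 5 libraries and 19 in 1 library only. Of the 21 regions shared by 2 or more libraries, 13 (61.9%) were listed in more Ethanol than Control libraries, against 30.0% of such regions over the genome. In the other direction there was 1, against 21.1%, and 7 were listed equally often. Because the window was chosen on the contrast of the groups, nothing is read from these shares.

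Regions without any Control peak numbered 22 of 40, against 23.8% of all merged regions, and regions without any Ethanol peak numbered 2, against 18.3%. Of the 22, 16 were listed in Ethanol 6, 6 in Ethanol 2, and 3 each in Ethanol 3 and Ethanol 5. None was listed in Ethanol 1 or Ethanol 4. Without Ethanol 6, which alone listed 12 regions, 10 of the 28 regions left had no Control peak, against 19.1% over the genome. Counting the best peak per region and library, score percentiles ranged from 8.37 to 54.8 over all 22 regions, with a median of 23.0. These regions thus sat mostly in the lower part of the lists. The one shared most widely, at -54.7 kb from 109147681 to 109152969, had 4558, 1532, 2071 and 4718 bp in Ethanol 2, 3, 5 and 6 and no peak in the other 8 libraries.

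At the bounds of the window, the outermost regions inside were at 109022902 and 109393628, both listed in all 12 libraries. Peaks covered 2090 ± 539 (Control) and 3007 ± 1129 bp (Ethanol) of the first, and 1099 ± 266 and 1116 ± 324 bp of the last (SD, n = 6 each). The nearest regions outside, at 108942137 and 109401706, were listed in 1 Control and 1 Ethanol library.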

How the data were processed

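ATAC-seq peak lists of 12 rat amygdala libraries were used, grouped by their titles. The authors deposited 1 list per library, called separately, with 5 columns giving position, a numbered name and a score. The submitters' processing notes name BWA, MACS2 (2.1.1), bedtools (2.27.1), featureCounts (1.5.0), edgeR and the build Rnor_6.0 without roles. The meaning of the deposited score, duplicate handling and read shifts were not given in the sources used here, and the score served only for ranks within a library. Deposited peak positions (in bp) gave covered length.

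Peaks were merged at 1 bp overlap and assigned to a place by their start (Python 3.11.15, numpy 2.4.6, pandas 2.3.3). Sequencing depth can change the number and width of peaks, hence the division by total covered length. Flanks were tested by exact permutation, and window density within Control by exact sign flips. The permutation test was checked on simulated data, and the sign-flip test only on a fixed set of made-up values. Named regions were the promoter region, those of the proximal stretch in all 12 libraries, and the 3 with the largest ratio in each direction among those in at least 6 libraries. Other regions named were chosen after their values were seen. Background windows of 400 kb were kept where peaks covered 8 kb or more on average. The members and lists were chosen with earlier results of these data known.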

Additional observations from a re-analysis of the deposited data

Results flagged for a closer look

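In Ethanol 1 the best peak of the Zfat promoter region had a score percentile of 94.2, against 97.1 to 98.6 in the other 5 Ethanol libraries. It lay far below the rest of its group by Dixon's ratio of gap to range. This was 1 such value among 30 groups of 6 libraries examined, where chance gives about 1 in 20. The covered length of the region in this library, 2795 bp, was the lowest of the Ethanol group.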

How the results depend on the processing

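Depth is unknown, and the gene positions needed to place regions in exons were not used. With all libraries kept, 34 values were computed under other settings. Of these, 30 kept their direction and also stayed on the same side of the threshold or within the spread between libraries. Those for window density against the flanks were judged by an exact sign-flip test over all 12 libraries and are counted among the 30. Nothing is read from that test or from their place in the count, because the high Ethanol values were among those that chose the window. The log2 ratio of Ethanol to Control over the window was 1.11, and it moved to 1.76 for the narrower window from 109050000 to 109250000. With the higher scoring 50% of peaks it was 0.78. The number of Ethanol libraries above all Control libraries was 5 over the window and 5 in the proximal stretch. It was 4 in both places with the higher scoring 50% of peaks and also with equal numbers of peaks. In the promoter region it was 1, 1 and 0 under these 3 settings. In the right flank the log2 ratio of -0.09 turned to 0.091 with the higher scoring 50% of peaks (exact permutation p = 0.825) and to 0.068 without division (exact permutation p = 0.859). Libraries of the same number were not treated as pairs. The correlations of their deviations from the group means were -0.0722 to 0.214, with a mean of 0.0484 against -0.00961 for other pairs. Whether they were processed together was not tested. A replicate block gave log2 ratios of -0.17 and -0.09 in the left and right flanks. Its two-sided exact sign-flip p values were 0.312 and 0.75, which changed no call. The lead of the promoter over the proximal stretch was 30.7 percentile points by the best peak and 48.6 by the mean of the peaks.

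With each library left out in turn, the log2 ratio ranged from 0.99 to 1.27 over the window, from 1.94 to 2.30 in the proximal stretch, and from 0.12 to 0.29 in the promoter region. In the flanks it ranged from -0.22 to -0.11 and from -0.20 to -0.0029, and the window exceeded the flanks by 3.95 to 5.08 percentage points. The mean number of window regions listed per library was 10 ± 2.19 in Control and 16.7 ± 7.84 in Ethanol (SD, n = 6 each), and the difference of 6.67 fell to 3.8 without Ethanol 6. Counting peaks in place of bp, leaving Ethanol 6 out of the region counts and testing the density in Control alone were added after seeing the data.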

Other observations

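The number in a peak's name rises along each chromosome, so the lists also show how many peaks were numbered between the first and last region of the window, listed or not. The Control libraries had 150 to 205 numbered peaks there, with a mean of 174 ± 21.1 (SD, n = 6). Ethanol 1 to 6 had 199, 247, 226, 144, 295 and 242, with Ethanol 2, 3, 5 and 6 above every Control library and Ethanol 4 below them all. Of these numbered peaks, 5.26% to 7.34% were listed in Control and 6.53% to 14.0% in Ethanol. Over the whole genome the highest number was 580781 to 721280 in Control and 530355 to 832962 in Ethanol. There too Ethanol 5 and Ethanol 6, with 793637 and 832962, lay above every Control library, and Ethanol 4 had the lowest number.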
